A study of Mus musculus with 6 samples.

Results

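The 10 genes described here encode the hypoxia-inducible factors (HIFs) and the proteins that set their activity by oxygen. They comprise the α subunits Hif1a, Epas1 and Hif3a, the shared β subunit Arnt, the prolyl hydroxylases Egln1, Egln2 and Egln3, the ubiquitin ligase receptor Vhl, the asparaginyl hydroxylase Hif1an, and Cited2, a protein that HIF induces and that competes with it for coactivators. The genes were chosen by function and matched by Ensembl identifier to mouse symbols, and all 10 were found among the 32739 genes counted in each library.

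RNA was sequenced from HL-1 cells, an immortalised mouse atrial cardiomyocyte line whose parent tumour arose from a viral large T antigen driven by the atrial natriuretic factor promoter. Both groups were exposed to hypoxia for 6 h and then reoxygenated for 1 h, with vehicle or with 5 µM BRL37344 (BRL below), a β3-adrenergic agonist, in the medium. Each group had 3 libraries, and the sources used here do not say when BRL was added. None of the 6 libraries analysed here is from normoxic cells, so the levels below are those of reoxygenated cells and hold no measure of the hypoxic response itself. Whether the libraries of a group are separate cultures is not stated, so p-values measure only the spread between these libraries, which may be technical.

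Under normal oxygen the prolyl hydroxylases modify the HIF α subunits, VHL binds the modified protein, and the proteasome degrades it. Hypoxia stops the hydroxylation, the α subunit pairs with ARNT, and the pair switches on genes for glycolysis, oxygen supply and its own hydroxylases, of which Egln1 and Egln3 are known HIF targets. HIF activity is therefore set mainly at the protein level, and the measurements here are of mRNA only. In the heart, HIF-1 is known for its part in the adaptation to ischaemia.

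Total expected counts were 4440168 to 5060049 in the vehicle libraries and 6812810 to 8332472 in the BRL libraries, so depth did not overlap between the groups. BRL replicate 1 stood apart from the other libraries. Its difference from BRL replicates 2 and 3 was 89.2 and 76.8 as chi-square per degree of freedom, against 1.69 to 4.20 for the other pairs of a group, and mitochondrially encoded genes took 5.03% of its counts against 16.5% to 21.9% elsewhere. The fits across all genes below were therefore made with and without it. Cardiomyocyte markers were present in every library, with a summed level of 8168 to 9053 counts per 1000000 (CPM) in vehicle and 4756 to 6352 CPM in BRL. Much of that difference lay in Myh6, at 3336 ± 306 CPM in vehicle and 1329 ± 321 CPM in BRL (SD, n = 3). Of the 15 markers in this sum 3 fell with BRL, namely Pln, Myh6 and Mybpc3, and none rose, beside 1.79% and 1.01% of all 12047 genes tested. Without BRL replicate 1, 7 of them fell and 3 rose (Tnni3, Nkx2-5 and Gata4), beside 10.9% and 10.3% of all genes. The 8 smooth muscle markers, led by Acta2, summed to 3075 to 3470 CPM in vehicle and 1277 to 2663 CPM in BRL. Of these, 5 were tested and none passed by edgeR with all libraries. Without BRL replicate 1, Acta2, Tagln and Smtn fell and Notch3 rose, beside 10.9% and 10.3% of all genes. The 10 fibroblast and 8 leukocyte markers each summed to at most 6.28 CPM, with 4 genes of each list, Ptprc among them, at 0 in every library. The 10 endothelial markers summed to 29.8 to 36.7 CPM in vehicle and 68.4 to 111 CPM in BRL, a sum made mostly of Kdr and Egfl7, while Emcn and Cldn5 were at 0 throughout. Kdr, a receptor of vascular endothelial growth factor, rose from 6.19 ± 2.37 to 44.6 ± 8.25 CPM (SD, n = 3), a log2 fold change of 2.84 (edgeR adjusted p = 0.00189). By edgeR's quasi-likelihood test Egfl7 passed only without BRL replicate 1 (1.26, edgeR adjusted p = 5.2e-06). DESeq2 and edgeR's exact test each called 2 of the 4 tested endothelial markers up with all libraries, beside 4.91% and 7.84% of all genes either way. Pecam1 and Vwf, also tested, did not rise with all libraries. Their log2 fold changes were −0.63 and −0.14 (edgeR adjusted p = 0.437 and 0.903), at mean levels of at most 1.97 CPM. Vwf had 0.17 without BRL replicate 1, where Pecam1 was not tested. The higher sum thus came mostly from Kdr and Egfl7. The part of these marker differences in the results below was not tested, and in bulk RNA fewer cells of a type and less RNA per cell cannot be told apart.

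Levels of different genes were compared per transcript length, as transcripts per 1000000 (TPM) taken from the RSEM fraction. In vehicle libraries the inducible hydroxylases stood highest, with Egln3 at 131 ± 14.9 TPM and Egln1 at 128 ± 11.8 TPM (SD, n = 3), and their ranges overlapped. Hif1a followed at 106 ± 6.82 TPM, then Vhl at 56.98 ± 3.68 TPM and Arnt at 33.98 ± 1.88 TPM, and no range in this stretch touched its neighbour. Cited2, Hif1an and Egln2 lay together at 23.4 ± 5.08, 20.9 ± 1.02 and 20.5 ± 1.82 TPM, with overlapping ranges. Epas1, the α subunit known mainly from endothelium, had 1.16 ± 0.25 TPM, and Hif3a, an α subunit whose short forms inhibit the others, had 0.214 ± 0.189 TPM. Hif1a thus made up 98.6% to 98.8% of the α subunit TPM in vehicle libraries and 98.0% to 98.96% in BRL libraries. The difference in that share was −0.303 percentage points (exact two-sided permutation test, p = 0.4, where 0.1 is the smallest p this design allows). It was −0.573 without BRL replicate 1, −0.0960 without BRL replicate 2 and −0.160 when counts were divided by the median transcript length instead.

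**Figure D1:**
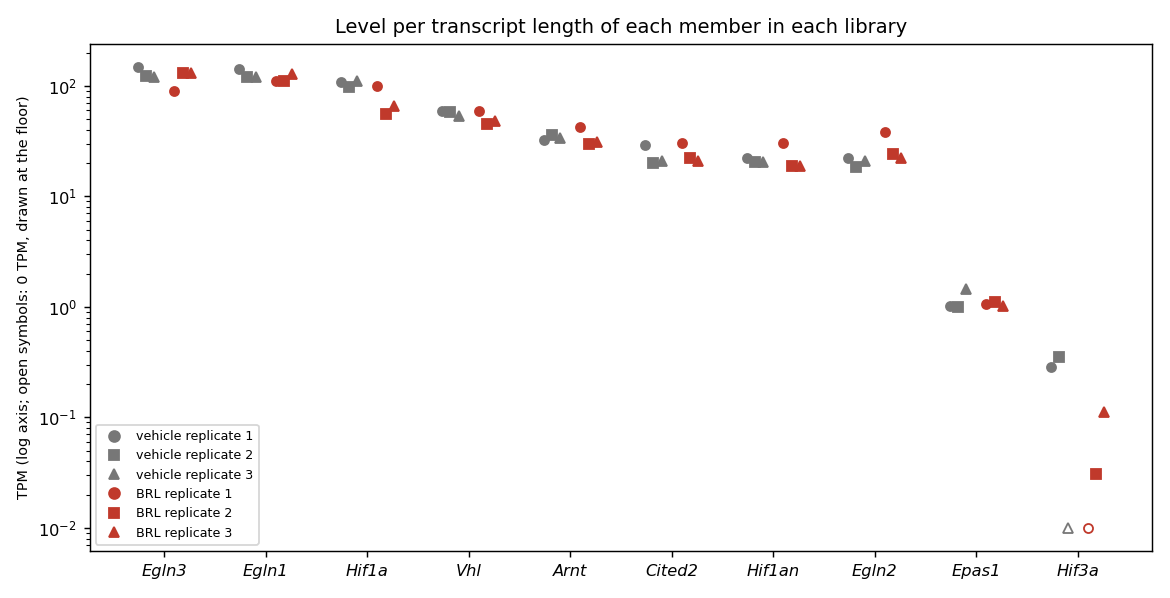
TPM of each of the 10 genes (log axis) in each library, with vehicle in grey and BRL in red and a symbol per replicate; open symbols are values of 0. Egln3, Egln1 and Hif1a stood highest and Epas1 and Hif3a lowest in both groups.

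The order in BRL libraries was the same for the first 5 genes. Egln3 had 117 ± 23.3 TPM, Egln1 116 ± 10.1 TPM and Hif1a 73.8 ± 23.7 TPM. The range of Hif1a, 55.6 to 100.6 TPM, here reached that of Vhl, 44.7 to 58.7 TPM. Egln2 stood after Arnt, at 28.3 ± 8.87 TPM. Among the hydroxylases, Egln1 took 45.4%, 45.9% and 46.1% of their summed TPM with vehicle and 46.1%, 41.5% and 45.4% with BRL. Here and below, values of single libraries are given in the order of replicates 1, 2 and 3. The shares overlapped, and the difference of −1.43 percentage points had p = 0.7 (exact two-sided permutation test). It depended on single libraries and on the length scaling, being −2.31 without BRL replicate 1, −0.013 without BRL replicate 2, and −2.98 (exact p = 0.1, the smallest possible) with counts divided by the median transcript length. Egln2 took 7.08% to 7.88% in vehicle and 16.2%, 9.15% and 7.96% with BRL, so each BRL library lay above the vehicle range, the last by less than 0.1 percentage points. Since a TPM unit is set by the whole library, and BRL replicate 1 has few mitochondrial reads, changes between groups below are given on CPM scaled by trimmed mean of M values (TMM).

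The promoters of the genes whose groups did not overlap, Hif1a, Vhl and Egln2, and of the HIF targets Egln1 and Egln3 are shown for the letters that HIF and CREB, the transcription factor activated by cyclic AMP, are known to bind. The sequences run from 250 bases before to 50 after the annotated start, from RefSeq on GRCm38.p6, a later build than the one the counts were made on. Capitals mark ACGTG and GCGTG, the forms of the HIF core, and TGACG and TGACGTCA, the core and the whole of the cyclic AMP response element, on either strand. For Egln2 the upstream of its 2 entries is shown.
Hif1a promoter, chr12:73907617-73907916, plus strand: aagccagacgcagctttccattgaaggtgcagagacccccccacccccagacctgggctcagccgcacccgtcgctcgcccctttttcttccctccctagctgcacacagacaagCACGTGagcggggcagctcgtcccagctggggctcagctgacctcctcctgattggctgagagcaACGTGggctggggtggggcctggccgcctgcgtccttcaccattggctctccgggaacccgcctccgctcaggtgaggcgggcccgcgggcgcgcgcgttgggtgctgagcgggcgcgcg
Vhl promoter, chr6:113623744-113624043, plus strand: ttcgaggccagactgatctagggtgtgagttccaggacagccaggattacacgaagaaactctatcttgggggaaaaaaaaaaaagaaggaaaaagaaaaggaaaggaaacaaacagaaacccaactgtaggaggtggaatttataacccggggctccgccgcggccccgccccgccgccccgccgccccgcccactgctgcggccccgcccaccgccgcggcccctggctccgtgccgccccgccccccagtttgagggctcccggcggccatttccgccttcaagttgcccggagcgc
Egln2 promoter, chr7:27166753-27167052, minus strand: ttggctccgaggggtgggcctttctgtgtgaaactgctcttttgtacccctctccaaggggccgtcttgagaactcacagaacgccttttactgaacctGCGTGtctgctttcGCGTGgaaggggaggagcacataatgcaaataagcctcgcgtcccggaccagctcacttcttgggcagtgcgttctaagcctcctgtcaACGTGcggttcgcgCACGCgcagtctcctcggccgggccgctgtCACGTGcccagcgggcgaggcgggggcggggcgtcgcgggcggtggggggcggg
Egln1 promoter, chr8:124949205-124949504, minus strand: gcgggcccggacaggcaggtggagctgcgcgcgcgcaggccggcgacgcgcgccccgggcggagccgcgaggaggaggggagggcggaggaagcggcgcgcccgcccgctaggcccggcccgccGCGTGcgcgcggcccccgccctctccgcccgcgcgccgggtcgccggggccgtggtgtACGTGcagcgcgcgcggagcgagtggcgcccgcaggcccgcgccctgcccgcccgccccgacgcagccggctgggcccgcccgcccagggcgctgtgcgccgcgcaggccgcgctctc
Egln3 promoter, chr12:54203825-54204124, minus strand: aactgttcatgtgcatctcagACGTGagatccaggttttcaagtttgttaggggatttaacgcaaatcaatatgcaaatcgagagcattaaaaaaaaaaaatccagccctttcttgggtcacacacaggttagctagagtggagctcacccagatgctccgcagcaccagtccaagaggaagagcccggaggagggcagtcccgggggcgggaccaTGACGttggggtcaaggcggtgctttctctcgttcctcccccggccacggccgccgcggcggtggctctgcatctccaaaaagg

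The Hif1a window held ACGTG at 3 places, of which a pair formed the palindrome CACGTG. The Egln2 window held ACGTG at 3 places, again with a CACGTG palindrome that straddles the annotated start, and GCGTG at 3 places. Egln1 had 1 match to each HIF core, Egln3 had ACGTG and the core TGACG, and Vhl had none of the letters searched. Across the family, 9 of 10 genes had an entry (Epas1 had none), with 2 for Egln2. Either HIF core was held by 7 of these 9 genes and by 8 of their 10 entries, against 43.8% of 32851 promoters of the same length. The full TGACGTCA was present in the Arnt window only, and in 1.79% of all promoters. GC content was 49.3% to 86.0% in the family's entries, with a median of 52.7% over all promoters. Every entry but the Egln2 entry not shown, at 49.3%, lay above that median. Both HIF cores hold the letters CG, so the 2 shares do not have a like background. The part of GC content in them was not tested. These matches describe letters and are not binding sites.

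Hif1a (ENSMUSG00000021109), the oxygen-regulated α subunit that dominates in these cells, was lower with BRL. Its 3 vehicle libraries had 300.0, 287 and 323 CPM and its 3 BRL libraries 221, 167 and 199.5 CPM. Every BRL library lay below every vehicle library on this scale, BRL replicate 1 being the nearest to them. In TPM the groups overlapped, since BRL replicate 1 had 100.6 TPM and vehicle replicate 2 had 98.5 TPM. The mean level fell from 303 ± 17.98 CPM (SD, n = 3) to 196 ± 27.3 CPM (n = 3), a log2 fold change of −0.63 ± 0.12 (SE, edgeR quasi-likelihood adjusted p = 0.0370), or 0.645-fold. The fit that left out BRL replicate 1 gave −0.72 ± 0.08 (edgeR adjusted p = 7.3e-05). The direction was the same in all 20 alternative analyses, with log2 fold changes from −0.72 to −0.53, but the call was not: without any 1 of the other 5 libraries the edgeR adjusted p was 0.0784 to 0.221. With library totals as the only scaling it was 0.121, and with limma on log2(TPM + 1) the adjusted p was 0.354. Hif1a counts were not whole in 4 of 6 libraries, so some of its reads were shared with other loci, and its exons overlap those of the antisense gene Gm15283, which had at most 5.69 counts in any library. They also overlap those of Gm49321 on the same strand. That gene was not among the genes counted, so its level could not be checked.

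The other HIF subunits gave no call. Arnt (ENSMUSG00000015522), the constitutive partner of the α subunits, had 77.8, 85.6 and 83.3 CPM with vehicle and 84.6, 76.6 and 80.2 CPM with BRL, and the groups overlapped fully. Its log2 fold change was −0.03 with a 95% interval of −0.25 to 0.18 (edgeR adjusted p = 0.875), and −0.06 without BRL replicate 1. Epas1 (ENSMUSG00000024140) had 15, 17 and 25 counts in vehicle and 21, 30 and 30 in BRL, and its interval of −0.85 to 0.50 was wide (log2 fold change −0.17, edgeR adjusted p = 0.771). With BRL replicate 1 left out it had −0.03. Hif3a (ENSMUSG00000004328) had 3, 2 and 0 counts in vehicle and 0, 1 and 4 in BRL and fell below the filter on low counts. The floor of 3 counts used here corresponds to 0.360 to 0.676 CPM, and a difference in Hif3a was not detectable at this depth.

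**Figure D2:**
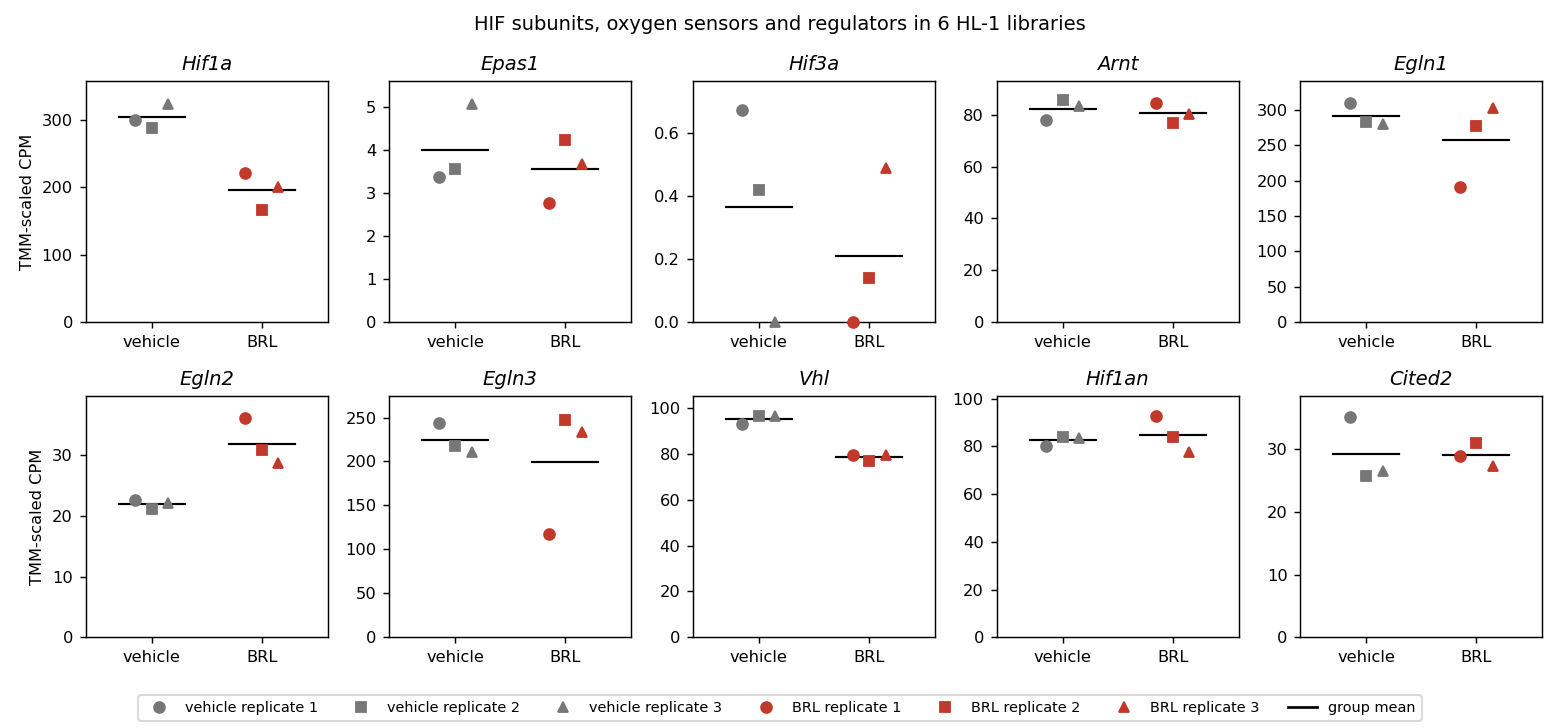
TMM-scaled CPM of each gene by group, 1 symbol per library and a black line at the mean of 3 libraries; each panel has its own axis from 0. Hif1a and Vhl were lower and Egln2 higher in all 3 BRL libraries, while BRL replicate 1 alone was low for Egln1 and Egln3.

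Vhl (ENSMUSG00000033933), which recognises the hydroxylated α subunit, had 93.1, 96.5 and 96.5 CPM with vehicle and 79.4, 77.0 and 79.7 CPM with BRL. All BRL libraries lay below all vehicle libraries on this scale. In TPM the groups overlapped, with 58.7 TPM in BRL replicate 1 against 52.8 to 59.9 TPM in vehicle. The means were 95.3 ± 1.99 and 78.7 ± 1.47 CPM, and the log2 fold change of −0.28 ± 0.09 did not pass over all genes (edgeR adjusted p = 0.118, unadjusted p = 0.0119). It was −0.28 ± 0.08 and passed once BRL replicate 1 was left out (edgeR adjusted p = 0.0189).

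Egln2 (ENSMUSG00000058709), the prolyl hydroxylase that hypoxia is not known to induce, was the only tested member of the 10 with a higher level in all BRL libraries. It had 22.6, 21.2 and 22.1 CPM with vehicle and 36.1, 31.0 and 28.7 CPM with BRL. The groups did not overlap, and BRL replicate 1 was the highest library. The means were 21.98 ± 0.74 and 31.9 ± 3.80 CPM, with a log2 fold change of 0.54 ± 0.13 and a 95% interval of 0.25 to 0.83, which missed the threshold over all genes (edgeR adjusted p = 0.0606). It passed at 0.44 ± 0.11 without BRL replicate 1 (edgeR adjusted p = 0.0120). Counts of Egln2 were whole in every library, and Cyp2t4, a gene on the other strand whose exons overlap it, had at most 5 counts.

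For Egln1 and Egln3, the hydroxylases that HIF induces, BRL replicate 1 was low and the other BRL libraries were not. Egln1 (ENSMUSG00000031987), the main oxygen sensor of most cells, had 309, 282 and 279.9 CPM with vehicle and 190.5, 277 and 302 CPM with BRL. BRL replicate 1 was the lowest library, BRL replicate 2 lay just under the vehicle range and BRL replicate 3 within it. The log2 fold change was −0.18 ± 0.16 (edgeR adjusted p = 0.561), and without BRL replicate 1 it was 0.002 with a 95% interval of −0.15 to 0.15. Egln3 (ENSMUSG00000035105) had 244, 217 and 211 CPM with vehicle and 117, 248 and 233 CPM with BRL. BRL replicate 1 was again the lowest library, and here BRL replicate 2 was the highest. The log2 fold change of Egln3 went from −0.17 ± 0.25 (edgeR adjusted p = 0.734) to 0.11 ± 0.07 without BRL replicate 1 (edgeR adjusted p = 0.322). The low mitochondrial share of BRL replicate 1 moves with these low values, and its part in them was not tested.

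Hif1an (ENSMUSG00000036450), also called FIH, which blocks coactivator binding by hydroxylating an asparagine of the α subunit, had 80.3, 84.1 and 83.3 CPM with vehicle and 92.9, 83.8 and 77.7 CPM with BRL. The groups overlapped, and the log2 fold change was 0.04 with a 95% interval of −0.19 to 0.27 (edgeR adjusted p = 0.861), and −0.03 without BRL replicate 1. Cited2 (ENSMUSG00000039910) had 35.2, 25.8 and 26.6 CPM with vehicle and 28.9, 31.0 and 27.4 CPM with BRL. Its vehicle replicate 1 was the highest library, and the log2 fold change was −0.005 with a 95% interval of −0.33 to 0.32 (edgeR adjusted p = 0.990), and 0.006 without BRL replicate 1.

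**Figure D3:**
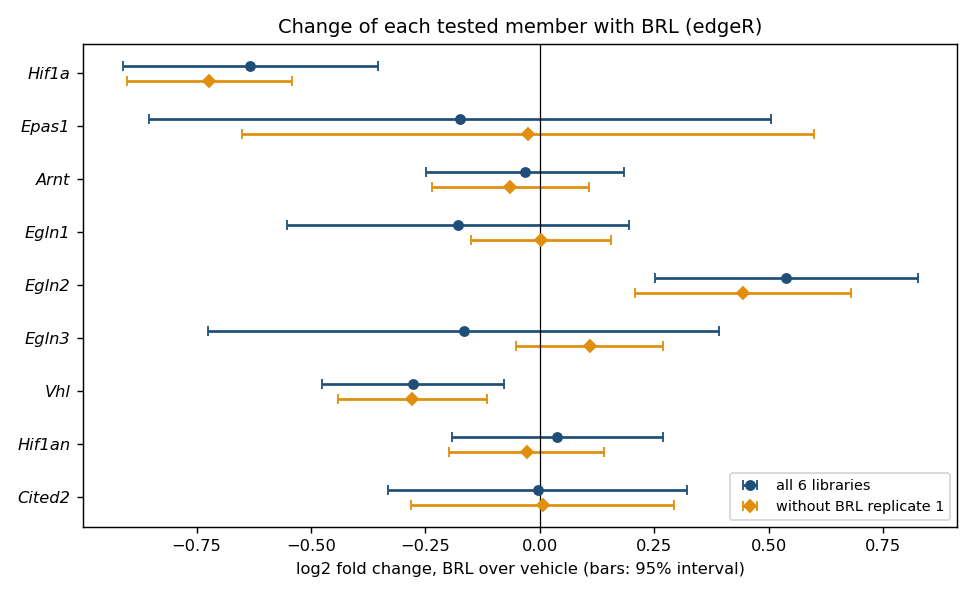
Log2 fold change of BRL over vehicle for the 9 tested genes with 95% intervals from the edgeR fit, for all 6 libraries in blue and without BRL replicate 1 in orange. The intervals of Hif1a and Vhl lie below 0 and that of Egln2 above 0 in both fits, before adjustment over all genes.

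In count, 1 of the 9 tested members fell (Hif1a) and none rose by edgeR, where 1.79% of the 12047 genes tested fell, 1.01% rose and 2.81% did either. An unadjusted p under 0.05 was found for 3 members, beside 22.4% of all genes. DESeq2 called Hif1a alone (4.91% of all genes), limma-voom likewise (2.32%), and edgeR's exact test Hif1a and Egln2 (7.84%). Every BRL library was above the vehicle libraries for 1 member, beside 16.0% of all genes, and below for 2, beside 15.5%. Together these are 3 of 9, beside 31.5%, a share near the background that is no result about the family. In the fit without BRL replicate 1, 1 member rose and 2 fell, beside 10.3% of 12064 genes that rose, 10.9% that fell and 21.2% that did either. The median log2 fold change of the members was −0.17, and −0.03 without that library, beside 0.01 and 0.003 over all genes.

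Ratios between members within a library do not depend on how libraries are scaled. The ratio of Hif1a to Arnt counts was 3.86, 3.36 and 3.87 with vehicle and 2.61, 2.17 and 2.49 with BRL. The groups were apart, with means of 3.69 ± 0.29 and 2.42 ± 0.22. The ratio of Egln2 to Arnt was 0.268 ± 0.022 with vehicle and 0.397 ± 0.035 with BRL, and that of Vhl to Arnt went from 1.16 ± 0.03 to 0.979 ± 0.036, both without overlap. Hif1a against Vhl was likewise lower in every BRL library, at 2.16 to 2.78 against 2.98 to 3.34 in vehicle. Hif1a against Egln1 overlapped, since BRL replicate 1 had 1.16 while BRL replicates 2 and 3 had 0.601 and 0.660, against 0.970 to 1.15 in vehicle. Of the 6 ratios compared, the 5 without overlap had p = 0.1, the smallest that 3 against 3 libraries allow, and adjusted p = 0.12 (exact two-sided permutation test). The choice of these ratios was made after the values were seen.

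**Figure D4:**
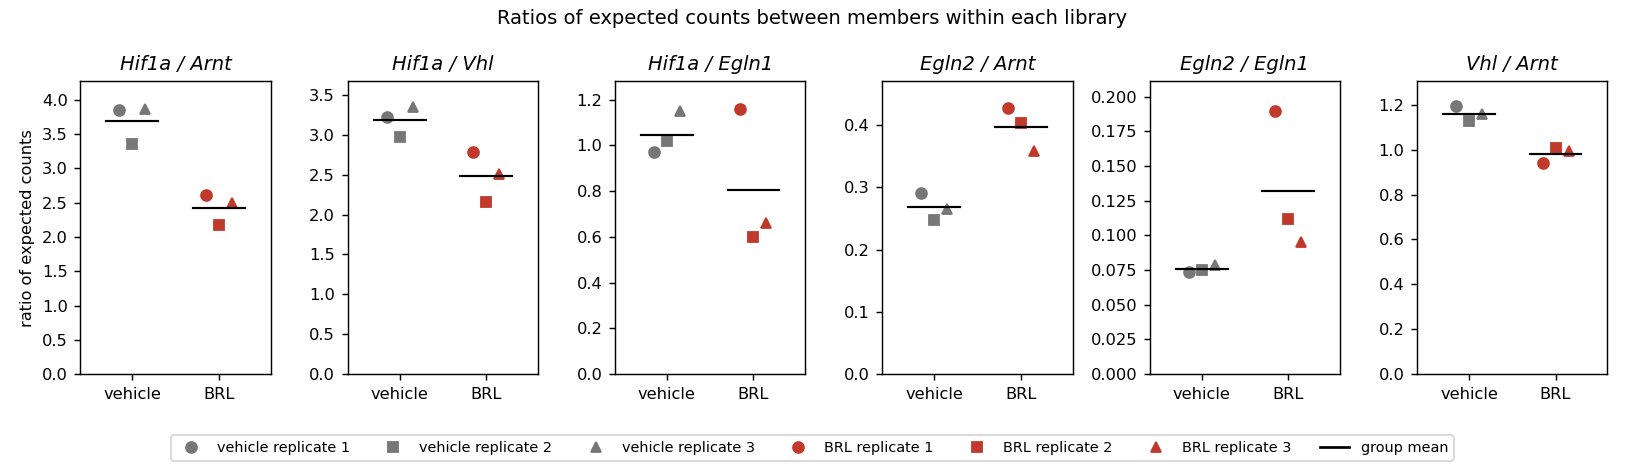
Ratios of expected counts between pairs of members within each library, 1 symbol per library, a black line at the group mean, and axes from 0. Hif1a and Vhl were lower and Egln2 higher relative to Arnt in each BRL library, and the ratio of Hif1a to Egln1 in BRL replicate 1 stood with the vehicle libraries.

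The genes whose CPM followed Hif1a most closely over the 6 libraries were Dmd, which encodes dystrophin, Mybpc3, a myosin-binding protein of the thick filament, and Slc8a1, the sodium-calcium exchanger of the heart, with Pearson r of 0.997, 0.995 and 0.995 on log2 CPM. Mybpc3, for instance, had 165, 164 and 180.4 CPM with vehicle and 108, 82.9 and 100.9 CPM with BRL, with BRL replicate 2 lowest as for Hif1a. These points share libraries and depth, and 142 of 9318 genes had r over 0.95, so the likeness is a description only.

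Around these genes lie the proteins that carry out and modulate HIF degradation, listed as 31 genes of the VHL ligase, of HIF coactivators and of regulators of its stability. All 31 were tested, and none passed by edgeR over all genes. An unadjusted p under 0.05 was reached by 7, a share near the 22.4% of all genes. Other tools called 2 (DESeq2), 3 (exact test) and 0 (limma-voom), beside 4.91%, 7.84% and 2.32% of all genes. The smallest p belonged to Elob, the elongin B adaptor of the VHL ligase, which averaged 49.8 ± 5.37 CPM with vehicle and 72.7 ± 7.79 CPM with BRL (log2 fold change 0.54 ± 0.12, edgeR adjusted p = 0.0567). Next came Rbx1, the RING subunit of the same ligase, at 32.1 ± 2.02 and 42.5 ± 2.36 CPM (0.40 ± 0.11, edgeR adjusted p = 0.0806). Both had counts that were not whole in 5 of 6 libraries. Leaving out BRL replicate 1, 6 of the 31 rose and 3 fell, beside 10.3% and 10.9% of all genes, with Elob at 0.63 (edgeR adjusted p = 0.000636) and Rbx1 at 0.36 (edgeR adjusted p = 0.0160). In that fit Eloc and Cul2, the other adaptor and the scaffold of the ligase, had log2 fold changes of −0.01 and 0.02 and did not pass. Usp20, a deubiquitinase that VHL binds, had −0.48 and passed there (edgeR adjusted p = 0.0117), and these last genes were picked after their values were seen.

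Among 40 listed HIF targets, 38 were tested and none passed by edgeR, with 11 at an unadjusted p under 0.05, beside 22.4% of all genes. Other tools called 5 (DESeq2), 3 (exact test) and 0 (limma-voom), beside 4.91%, 7.84% and 2.32% of all genes. Edn1, the endothelin precursor, had the smallest p and averaged 10.2 ± 2.29 CPM with vehicle and 4.14 ± 1.36 CPM with BRL (log2 fold change −1.30 ± 0.29, edgeR adjusted p = 0.0562). Slc16a3, a lactate exporter, measured 189.6 ± 25.6 and 268 ± 16.2 CPM (0.50 ± 0.12, edgeR adjusted p = 0.0629), with counts that were not whole in 5 libraries. Without BRL replicate 1, 17 targets rose and 4 fell, beside 10.3% and 10.9% of all genes, with Edn1 at −1.08 and Slc16a3 at 0.54. The median log2 fold change of the targets was 0.15 with all libraries and 0.19 without BRL replicate 1. Vegfa, chosen after its values were seen as the target best known for its link to HIF, measured 396 ± 7.87 and 376 ± 107 CPM and gave no call (log2 fold change −0.07 ± 0.20, edgeR adjusted p = 0.858). BRL replicate 1 had 253 CPM and the other BRL libraries 442 and 433 CPM, and without it the log2 fold change was 0.15 ± 0.06 (edgeR adjusted p = 0.104).

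Of 27 other enzymes that use oxygen, mostly with 2-oxoglutarate as the HIF hydroxylases do, 25 were tested and none passed by edgeR. An unadjusted p under 0.05 was found for 4, again beside 22.4% of all genes. Other tools called 2 (DESeq2), 3 (exact test) and 0 (limma-voom), beside 4.91%, 7.84% and 2.32% of all genes. Jmjd4, a lysyl hydroxylase of a translation release factor, averaged 31.6 ± 3.67 CPM with vehicle and 22.2 ± 0.13 CPM with BRL (log2 fold change −0.51 ± 0.12, edgeR adjusted p = 0.0650), with counts that were not whole in 5 libraries. Tet1, which oxidises methylcytosine, measured 77.8 ± 8.73 and 53.2 ± 7.90 CPM (−0.55 ± 0.14, edgeR adjusted p = 0.0756). With BRL replicate 1 left out, 2 of the list rose and 4 fell, beside 10.3% and 10.9% of all genes, with Jmjd4 and Tet1 among those that fell (edgeR adjusted p = 0.00986 and 0.00375). The median of this list was 0.01 with all libraries and −0.10 without BRL replicate 1.

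**Figure D5:**
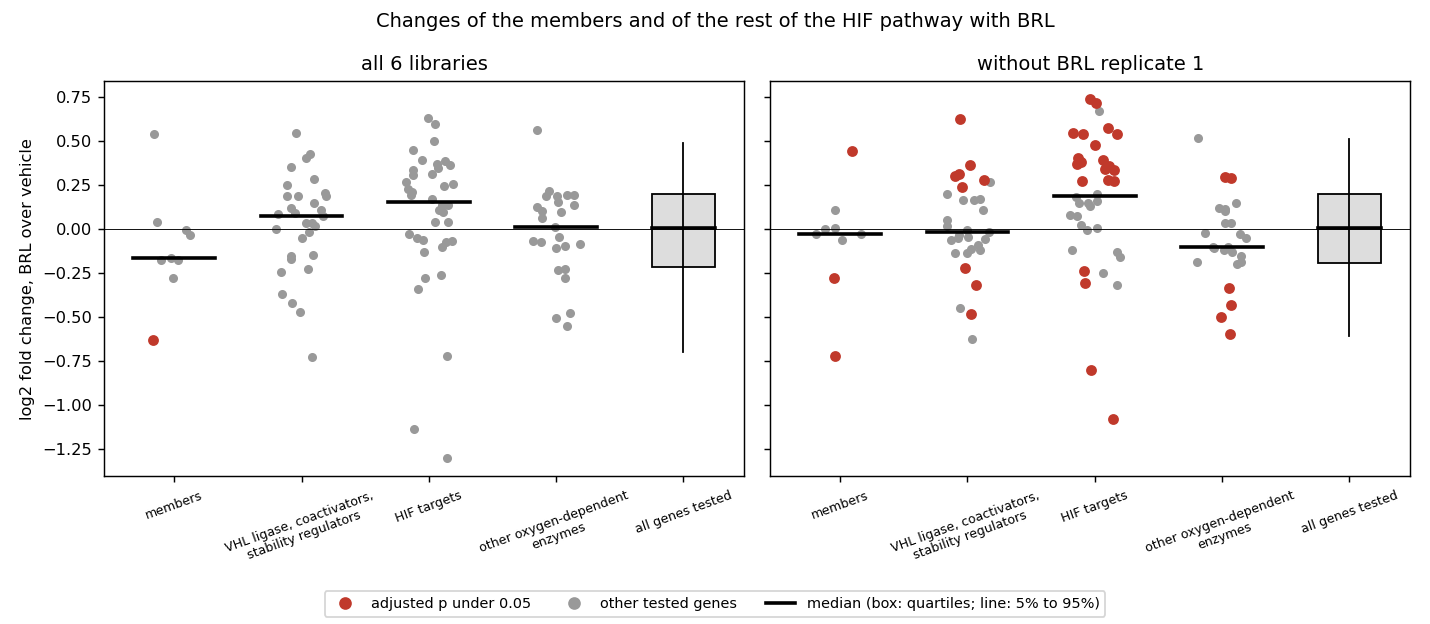
Log2 fold change of every tested gene of the 10 members and of the 3 other lists, with all 6 libraries at left and without BRL replicate 1 at right; red points had an adjusted p under 0.05 by edgeR, bars are list medians, and the box shows all genes tested. Hif1a is the red point at left, and 3 members are red at right.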

How the data were processed

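Expression was measured by RNA-seq in 6 HL-1 libraries made from total RNA with the TruSeq kit, per the labels' protocols, and groups and replicate numbers come from the sample titles. The sample files hold RSEM expected counts per gene and an RSEM fraction per gene that the authors deposited, which sums to 1 in each library and was multiplied by 1000000 to give TPM. The tools were cutadapt, Bowtie, RSEM 1.17 and edgeR and the build NCBIM37, per the submitters' processing notes; the sources used here give neither settings nor the use of strand. The authors' deposited series table holds log2 values for 13863 genes, which served for an alternative only.

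Rounded expected counts went into edgeR 4.0.16 under R 4.3.3, with TMM factors and the quasi-likelihood F-test of BRL against vehicle without covariates. Genes were kept by filterByExpr at its minimum count of 10, which left 12047. Benjamini-Hochberg adjustment ran over all of them, the threshold was 0.05, and no p was adjusted over a list alone. Standard errors are log2 fold changes, without sign, divided by the root of F, and 95% intervals use the degrees of freedom of the fit. Depth limits the precision of low genes, and the floor of 3 counts covers counting error only. Counts were called whole within 0.005. Symbols were matched for 88.4% of genes through the supplied table, and exon overlaps come from GENCODE M21, which is on another build, so no coordinates were taken from it. Alternatives used DESeq2 1.42.0, limma 3.58.1, other scalings and filters, thinned counts, a replicate block and fits without each library. The test was tried on simulated counts. There it recovered 13 of 50 genes changed 1.5-fold, 38 of 50 changed 2-fold and all 50 changed 4-fold, and 6 of its 157 calls were unchanged genes. Most changes of 1.5-fold were thus missed in that trial, and a gene without a call is not shown to be unchanged.

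The members and lists were chosen with earlier results of these data known. All 10 members are named, with the 2 genes of smallest p in each other list and the 3 genes most alike in pattern to the member of smallest p, among genes with a symbol and at least 10 CPM. Of the listed genes, Ero1a and Jmjd7 were not matched, and Car12 and Bbox1 fell below the filter.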

Additional observations from a re-analysis of the deposited data

How the results depend on the processing

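Direction was the same under all 20 alternatives for Hif1a, Egln2 and Vhl. Hif1a passed in 13 of them, Egln2 in 3 and Vhl in 1. Genes called up over all genes numbered 122, and 77 with library totals only, 282 with no filter on low counts, 242 by DESeq2, 418 by edgeR's exact test and 30 by limma on log2(TPM + 1). Genes called down numbered 216, and 330 with no filter, 350 by DESeq2, 527 by the exact test and 30 on log2(TPM + 1). The higher calls made up 36.1% of all calls, and 50% on log2(TPM + 1). Leaving out 1 library gave 17 to 1240 up and 15 to 1315 down, the highest without BRL replicate 1. Members called up numbered 0, and 1 (Egln2) with no filter and by the exact test; members called down numbered 1, and 0 with library totals only and on log2(TPM + 1); without 1 library they were 0 to 1 up and 0 to 2 down. In the 3 other lists together, none was called up or down, and 2 up and 3 down were called with no filter, 5 and 4 by DESeq2, 3 and 6 by the exact test, 2 down with thinned counts, and 0 to 25 up and 0 to 11 down without 1 library.

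The log2 fold changes of Epas1, Arnt, Egln1, Egln3, Hif1an and Cited2 changed sign in some analyses, never with a call. Those of Egln1, Egln3 and Hif1an did so only without BRL replicate 1. Arnt had 0.0092 with library totals only and 0.0027 on log2(TPM + 1). Cited2 had 0.028 with library totals only, 0.0058 with mitochondrially encoded genes left out, 0.0195 with no filter, 0.00098 with the 1 CPM filter, 0.0078 by limma-voom and 0.064 on log2(TPM + 1). Leaving out 1 library in turn, Epas1 ranged from −0.310 to 0.038, Arnt from −0.0645 to 0.0027, Egln1 from −0.312 to 0.0019, Egln3 from −0.351 to 0.109, Hif1an from −0.0289 to 0.0985 and Cited2 from −0.0833 to 0.159. The cause was not tested.

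The sources used here do not say whether same-numbered libraries were handled together. Their deviations from the group means had r of 0.103, −0.013 and −0.012, and those of unlike numbers −0.123 to 0.138. With 3 libraries in a group these values cannot show or exclude a pairing. With the replicate number as a block, 63 genes were called up and 150 down, Hif1a was still called, and Cited2 had 0.0032. The difference in the Egln1 share had p = 0.75 and that in the Hif1a share p = 0.5 by exact sign changes within the pairs.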
